A study of Mus musculus with 12 samples.

Results

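Integrins, cadherins, claudins and connexins are the membrane proteins through which a cell holds its matrix and its neighbours. They were followed by gene name: a gene belonged if its symbol began as an integrin alpha or beta chain, a cadherin, a protocadherin, a claudin or a connexin of the alpha to delta classes. The rule matched 147 of the 11520 probes. Of these, 146 carried 1 gene symbol and gave 139 of the 9212 genes measured, and 1 probe, annotated to both Itgae and Haspin, was kept apart. The genes comprised 13 integrin alpha chains, 8 integrin beta chains, 19 cadherins, 62 protocadherins, 21 claudins and 13 connexins, with 3 further genes (Itgb1bp1, Itgb1bp2 and Itgbl1) that carry an integrin name and are not receptor chains. No measured value entered the choice of genes.

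The study let mouse R1 embryonic stem (ES) cells differentiate at random. Embryoid bodies (EB), clumps of ES cells that form tissues of several kinds on their own, were dissociated and plated in medium with serum for 4, 8, 15 or 21 days. Undifferentiated ES cells grown on gelatin with leukemia inhibitory factor (LIF) were the control, and all groups came from this 1 cell line. Each of the 12 arrays carried EB RNA of 1 day in 1 channel and ES RNA in the other, with 3 arrays a day.

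Integrins pair an alpha with a beta chain into receptors that bind matrix proteins such as laminin, fibronectin and vitronectin and link them to actin inside the cell. Classical cadherins bind their like on the next cell in adherens junctions, claudins form the seal of tight junctions between epithelial cells, and connexins form the channels of gap junctions. Protocadherins are relatives of the cadherins. Some are single genes, and most are encoded side by side in the alpha, beta and gamma clusters, where the genes of the alpha cluster share 3′ exons with one another, as do those of the gamma cluster. In ES cells Cdh1 (E-cadherin) holds the colony together, and differentiating embryoid bodies form an outer endoderm, an epithelium and mesenchyme.

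Values are deposited log ratios of the 2 channels, read as log2. Positive is taken to mean more RNA in EB than in ES cells, a likely direction that the labels leave unsettled. The titles name ES first, and the dye fields assign Cy5 to ES RNA, but the protocol text assigns that dye to EB RNA. What decided it was that the ES cell genes Zfp42 and Nanog were negative and the visceral endoderm genes Afp and Ttr positive, so these 4 genes cannot count in its favour. Should the sign run the other way, higher and lower trade places throughout, while counts and p-values stay as they are. Dyes were not swapped, and any effect of the dye on a gene remains in its ratios against ES. Errors are SDs over the 3 arrays of a day, and adjusted p-values are limma's, over all 10689 features tested, with a threshold of 0.05. A gene past it is called. In such bulk samples, fewer cells of a type and less RNA per cell cannot be told apart.

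The arrays fell into 2 sets by 96 spots to which no gene is assigned. In array 3 of days 4, 15 and 21 and in arrays 2 and 3 of day 8 (set 2), their median lay between -1.54 and -1.04, and on the 7 other arrays (set 1) between -0.31 and 0.06. Pearson correlations over all features between arrays of 1 day ran between 0.0059 and 0.2016 at day 4, between 0.3509 and 0.6187 at day 8, between 0.3903 and 0.8206 at day 15, and between 0.559 and 0.773 at day 21. Of 14 pluripotency markers measured, 0 were higher and 12 lower at day 21, and without Zfp42 and Nanog, which helped to fix the sign, 0 of 12 were higher and 10 lower. In the same comparison 9 of 14 visceral endoderm, 9 of 13 smooth muscle and fibroblast, 6 of 13 heart muscle, 6 of 12 endothelial and 5 of 15 blood markers were higher, and 0 of each of these lists were lower. The background for these marker counts is 8.78% of all features called higher and 9.93% called lower at day 21. Without Afp and Ttr, 7 of 12 visceral endoderm markers were higher. Of 14 neural markers, 1 was higher (Elavl4, 0.30 ± 0.15) and 1 lower (Stmn2, -1.77 ± 0.13).

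The day 21 embryoid bodies held more RNA of a small group of adhesion genes than ES cells did, led by the connexin Gjb2 (1.02 ± 0.65), the claudins Cldn6 (0.91 ± 0.19) and Cldn7 (0.72 ± 0.09), the integrin chain Itgb5 (0.84 ± 0.13) and the protocadherins Pcdh18 (0.76 ± 0.25) and Pcdh20 (0.65 ± 0.35; SD, n = 3 each). The clustered protocadherin Pcdhga10 (-0.75 ± 0.28) and the connexin Gjb5 (-0.69 ± 0.33) were the lowest. Of the genes just named, Itgb5, Pcdh18 and Pcdhga10 alone kept their day 21 calls when any 1 array was left out. Quantile normalization ended the day 21 calls of Gjb2, Cldn6 and Cldn7. At that day 24 of the 139 genes were called, which is 17.3%, and 18.7% of all features were. Of the 24, 16 were higher and 8 lower, against 8.78% of all features called higher and 9.93% called lower. The share called lies close to the background, so it is no result about the group as a whole. Its values were also no larger: the median size of the day 21 mean was 0.127 over the 139 genes and 0.152 over all features, and 12 genes passed 0.5 in either direction.

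Most calls came at the later days. At day 4 limma called 0 of the 139 genes and 0.0% of all features (12 genes had an unadjusted p under 0.05, as did 10.1% of all features). Day 8 had 2 calls (1.44%; background 2.28%), Itga8 and Cdh6. Day 15 had 9 (6.47%; background 10.6%), of which 8 were higher (background 5.66%) and 1 lower (background 4.9%). At 1 day or more 26 genes were called, and 113 were called at none. Days 15 and 21 shared 7 calls, all with 1 sign, while Gja1 and Cdh6 were called at day 15 and not at day 21. Each day's test takes ES RNA as its control, and 1 fit gives the spread for all days, so calls at several days are not independent.

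**Figure D1:**
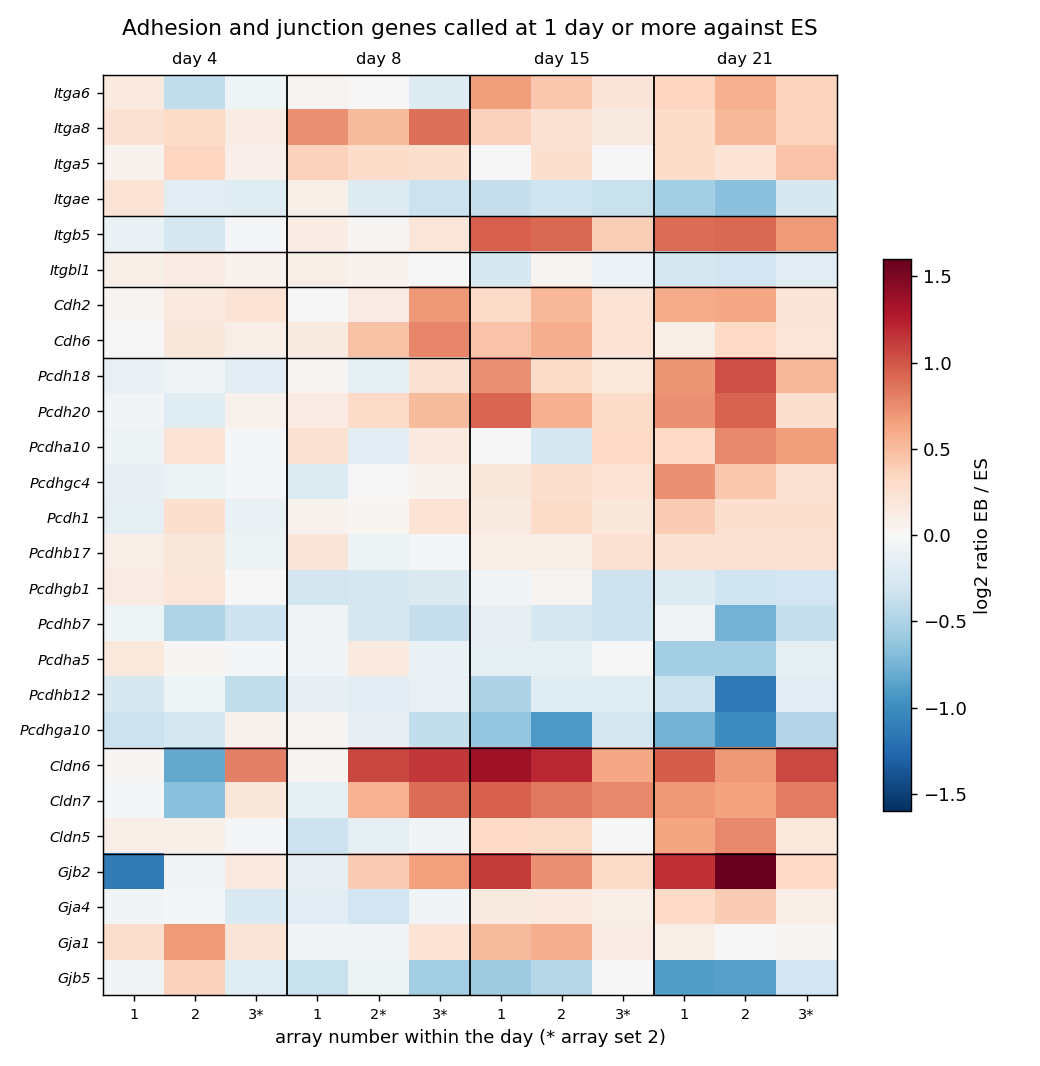
Log2 ratio EB / ES of the 26 genes called at 1 day or more, 1 row per gene and 1 column per array, with red for higher and blue for lower in EB. Horizontal lines part the families, and stars mark arrays of set 2. Colour gathers in the columns of days 15 and 21, and array 3 of those days is paler in many rows.

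By family, the counts at day 21 were 4 of 13 integrin alpha chains (3 higher, 1 lower), 1 of 8 beta chains (higher), 1 of 19 cadherins (higher), 3 of 8 non-clustered protocadherins (all higher), 8 of 54 clustered protocadherins (3 higher, 5 lower), 3 of 21 claudins (all higher) and 3 of 13 connexins (2 higher, 1 lower). The background was 18.7% of all features called, 8.78% higher and 9.93% lower. Differences between families were not tested. The median over genes was 0.08 for alpha chains, 0.05 for beta chains, 0.13 for cadherins, 0.23 for non-clustered and -0.03 for clustered protocadherins, 0.10 for claudins and 0.04 for connexins, beside 0.0031 for all features. The 3 genes with an integrin name only had 1 call, lower, and a median of -0.25. Most of these medians are small beside the spread of single genes, and every family held day 21 means on both sides of 0. Non-clustered protocadherins, cadherins and claudins were singled out by their values, as families with 0 genes below 0 on all 3 day 21 arrays. Above 0 on all 3 day 21 arrays lay 6 of 8, 9 of 19 and 8 of 21 of them, in that order. Their other genes did not keep 1 sign over the arrays. Integrin alpha chains had 5 above and 2 below, and beta chains 2 and 1. Clustered protocadherins had 12 and 14, connexins 3 and 3, and genes with an integrin name only 1 and 2. Over all features, 27.8% lay above and 26.6% below on all 3 arrays. Whether any family differed from these shares was not tested.

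**Figure D2:**
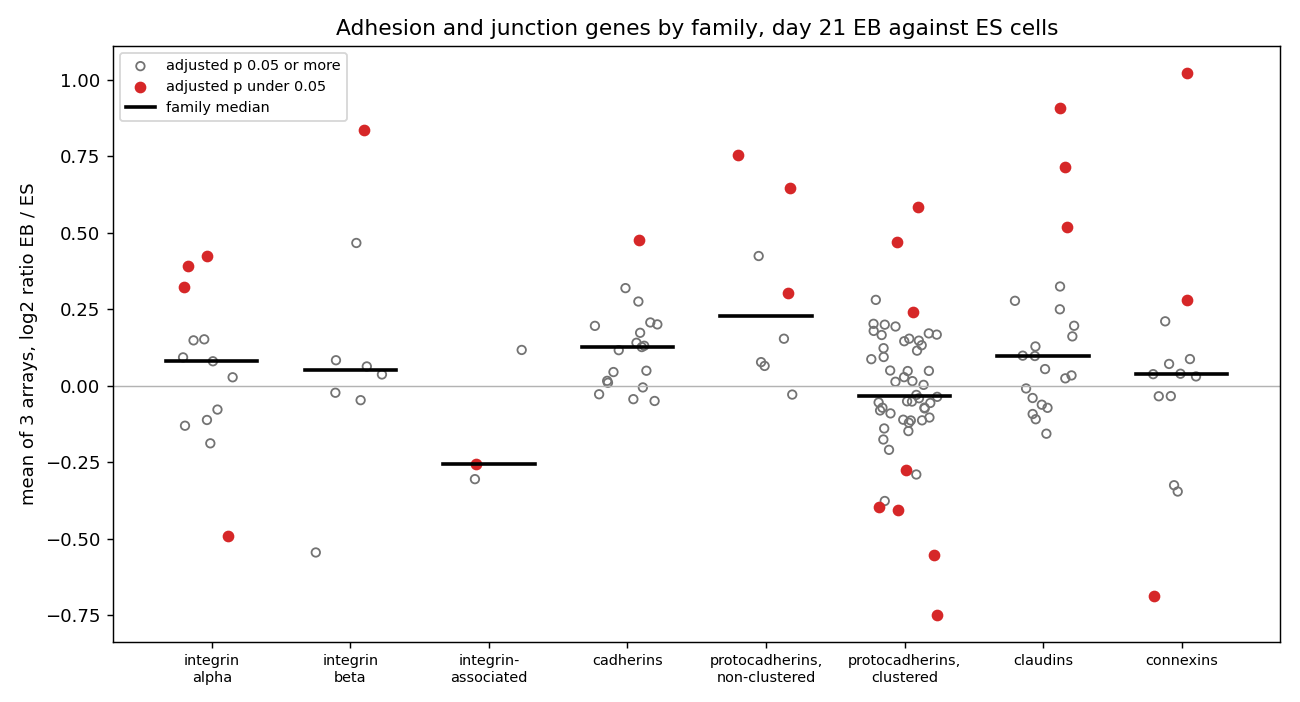
Mean log2 ratio EB / ES at day 21 for each of the 139 genes, 1 point per gene and grouped by family, with filled red points for adjusted p under 0.05 and a black line at the family median. Family medians lie between -0.25 (genes with an integrin name only) and 0.23 (non-clustered protocadherins). Single genes reach 1.02 for Gjb2 and -0.75 for Pcdhga10.

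Among the integrins, Itgb5, which pairs with the alpha V chain into a vitronectin receptor, had the largest mean at day 21. Its ratios were -0.11, -0.28 and -0.02 on the 3 day 4 arrays, 0.12, 0.02 and 0.20 at day 8, 0.95, 0.92 and 0.39 at day 15, and 0.90, 0.92 and 0.69 at day 21. All 6 arrays of days 15 and 21 lay above all 6 of days 4 and 8. Its mean was 0.76 ± 0.31 at day 15 (limma adjusted p = 0.00108) and 0.84 ± 0.13 at day 21 (limma adjusted p = 2.74e-04). Day 21 exceeded day 4 by 0.97 (95% interval 0.65 to 1.29, limma adjusted p = 0.00362). Itgav, its alpha partner, had 0.50, -0.00 and -0.26 at day 21 and was not called (limma adjusted p = 0.668). Those 3 arrays fall on both sides of 0.

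Itga6, the alpha chain of laminin receptors, averaged -0.10 ± 0.28 at day 4 and -0.05 ± 0.13 at day 8. It then had 0.67, 0.43 and 0.21 on the day 15 arrays and 0.34, 0.57 and 0.35 on the day 21 arrays, all above 0 (limma adjusted p = 0.0272 and 0.0201). Itga8, the alpha chain of a nephronectin receptor, had its highest mean at day 8. It had 0.73, 0.51 and 0.89 at day 8 (0.71 ± 0.19, limma adjusted p = 0.00349), 0.37, 0.23 and 0.15 at day 15 and 0.29, 0.53 and 0.35 at day 21 (0.39 ± 0.12, limma adjusted p = 0.00798). All 12 arrays of Itga8 were above 0, with the 3 of day 4 averaging 0.21 ± 0.09. Its day 8 mean did not pass against day 4 or day 15 (limma adjusted p = 0.314 and 0.199). The fibronectin receptor chain Itga5 had 0.30, 0.22 and 0.45 at day 21 (limma adjusted p = 0.018). It stood at 0.31 ± 0.06 at day 8 without passing the test (limma adjusted p = 0.0754).

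Itgae, the alpha chain that pairs with Itgb7 on lymphocytes within epithelia and binds E-cadherin, was lower, with -0.54, -0.67 and -0.26 at day 21 (limma adjusted p = 0.00821). Its partner Itgb7 had -0.86, -0.73 and -0.04, a wider spread, and was not called (limma adjusted p = 0.0792). Itgb1, the beta chain shared by most matrix receptors, had -0.21, -1.33 and 0.18 at day 4, 0.21, 0.21 and 0.10 at day 8, 0.52, 0.52 and 0.08 at day 15, and 0.79, 0.41 and 0.20 at day 21. All 9 arrays from day 8 on were above 0, and the day 21 mean of 0.47 ± 0.30 did not pass (limma adjusted p = 0.15). With 1 array left out at a time, the limma adjusted p at day 21 ran between 0.0219 and 0.521. The lowest came without array 2 of day 4, the low one. The estimates ran between 0.30 and 0.60. The platelet chains Itga2b (0.15 ± 0.05) and Itgb3 (-0.02 ± 0.13) and the laminin receptor chain Itga3 (0.03 ± 0.06) were not called at day 21.

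Of the genes that carry an integrin name only, Itgbl1, a secreted protein with integrin-like repeats, was lower at day 21 (-0.25 ± 0.07, limma adjusted p = 0.0277). Itgb1bp2, the muscle protein melusin, stood at -0.30 ± 0.17 (limma adjusted p = 0.0515) and Itgb1bp1 at 0.12 ± 0.07 (limma adjusted p = 0.297).

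Integrin ligands of the matrix were called higher for 11 of 23 genes measured at day 21, and 0 were called lower. Of all features 8.78% were called higher and 9.93% lower at that day, which is the background for this and the other partner lists below. The median of the ligands was 0.28, beside 0.0031 for all features. Periostin (Postn) stood at 2.80 ± 0.21 and the collagens Col1a2 at 1.94 ± 0.38, Col3a1 at 1.29 ± 0.12 and Col1a1 at 1.02 ± 0.20. These 4 are also among the 13 smooth muscle and fibroblast markers measured. The array medians of that list at day 21, 0.97, 0.82 and 1.08, therefore include them. Vitronectin (Vtn), the ligand of the Itgb5 receptor, was at 0.66 ± 0.50 (limma adjusted p = 0.00821), fibronectin (Fn1) at -0.07 ± 0.21 and nephronectin (Npnt) at -0.09 ± 0.08, the last 2 not called. Of 16 integrin adaptors and kinases (median 0.11), 3 were higher and 1 lower: the focal adhesion proteins Parva (0.90 ± 0.28) and Zyx (0.89 ± 0.27) and the docking protein Bcar1 (0.44 ± 0.26) against Lims2 (-0.28 ± 0.07).

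**Figure D3:**
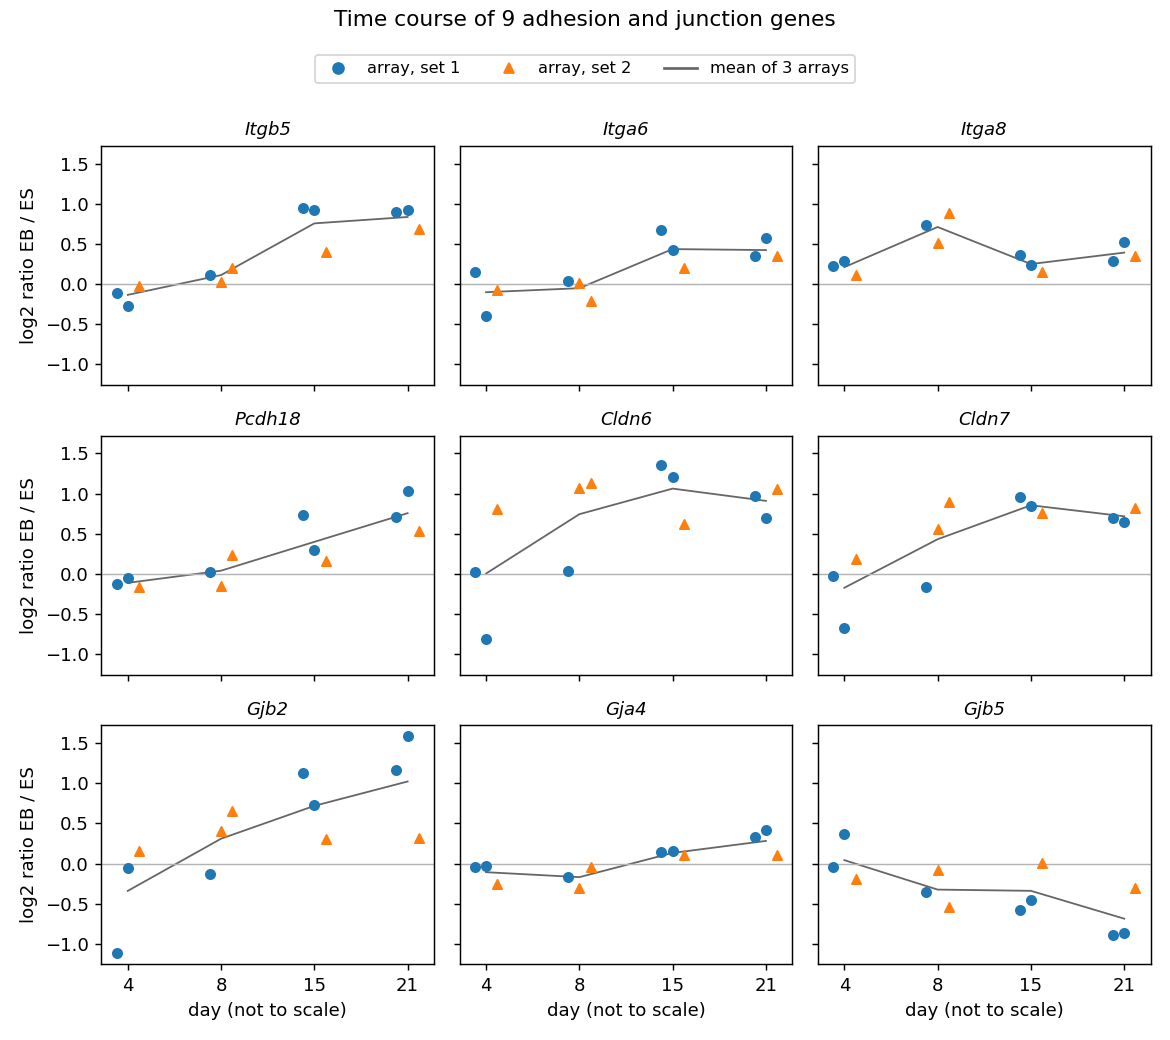
Log2 ratio EB / ES of 9 genes at days 4, 8, 15 and 21, with circles for arrays of set 1, triangles for arrays of set 2 and a line through the mean of the 3 arrays of each day. Itgb5 stays near 0 to day 8 and lies at 0.39 or above from day 15, Itga8 has its highest mean at day 8, and Gja4 ends above 0 while Gjb5 ends below it.

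Cadherins gave 1 call among 19 genes at day 21 (5.26%; background 18.7%). Cdh2 (N-cadherin), the classical cadherin of neural, heart and mesodermal cells, had 0.04, 0.15 and 0.22 at day 4, 0.01, 0.14 and 0.69 at day 8, 0.31, 0.53 and 0.22 at day 15, and 0.59, 0.62 and 0.21 at day 21. All 12 arrays were above 0, and the day 21 mean of 0.48 ± 0.23 was called (limma adjusted p = 0.019). Cdh1 (E-cadherin) had -0.10, -0.09 and 0.04 at day 21, a mean of -0.05 ± 0.08 that was not called (95% interval -0.23 to 0.13, limma adjusted p = 0.723). Its means at days 4, 8 and 15 were -0.08 ± 0.21, 0.01 ± 0.05 and -0.07 ± 0.10, so the arrays recorded no loss of Cdh1 RNA larger than their spread. The difference between Cdh2 and Cdh1 was not tested.

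Cdh6, a cadherin of the embryonic kidney and neural crest, was called in the middle of the course. It had 0.14, 0.47 and 0.78 at day 8 (0.46 ± 0.32, limma adjusted p = 0.0487), 0.46, 0.59 and 0.22 at day 15 (0.42 ± 0.18, limma adjusted p = 0.0279) and 0.11, 0.32 and 0.19 at day 21 (limma adjusted p = 0.209). No contrast of successive days passed for Cdh6 (limma adjusted p = 0.652, 0.978 and 0.898). Its 2 probes averaged 0.40 and 0.52 at day 8. The day 8 call sits at the threshold and was lost without any 1 of 10 of the 12 arrays, with limma adjusted p-values of up to 0.37. The 1 day 8 array of set 1 was the lowest of that day. The mesenchymal cadherin Cdh11 stood at 0.32 ± 0.06 at day 21 (limma adjusted p = 0.131), Cdh3 (P-cadherin) at 0.13 ± 0.04 and the endothelial Cdh5 at 0.01 ± 0.13, none of them called. Without array 3 the Cdh5 mean turns to -0.06. All 19 cadherins lay between -0.05 (Cdh1) and 0.48 (Cdh2) at day 21.

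Catenins and other adherens junction partners gave 1 higher and 1 lower call among 16 genes with a median of 0.06: plakoglobin (Jup), at 0.58 ± 0.21, and the actin-binding protein Lima1, at -0.80 ± 0.32. Beta-catenin (Ctnnb1) was at 0.46 ± 0.03 (limma adjusted p = 0.0547). Among 12 desmosome genes (median 0.01) the desmoglein Dsg1a was higher (0.48 ± 0.05) and the plakophilin Pkp1 lower (-0.40 ± 0.26). Of the 15 epithelial-mesenchymal transition factors and mesenchymal genes (median 0.14), 3 were higher and 2 lower. Vim, the mesenchymal filament protein, stood at 0.89 ± 0.03 and the growth factor receptor Pdgfra at 0.61 ± 0.52, while the calcium-binding protein S100a4 was at -1.72 ± 0.21 and the surface protein Thy1 at -0.59 ± 0.45 (limma adjusted p = 0.0462). The remaining call was that of Snai1, a repressor of Cdh1, at 0.35 ± 0.05 (limma adjusted p = 0.0451).

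The non-clustered protocadherins held the family with the highest median, 0.23. Pcdh18 had -0.12, -0.05 and -0.16 at day 4, 0.03, -0.15 and 0.23 at day 8, 0.73, 0.30 and 0.16 at day 15, and 0.70, 1.03 and 0.53 at day 21. Day 21 lay above every array of days 4 and 8 (0.76 ± 0.25 against ES, limma adjusted p = 0.00113). Its excess over day 4 was 0.87 (95% interval 0.51 to 1.23, limma adjusted p = 0.0111), and without array 2 of day 21 that adjusted p was 0.0513. Pcdh20 averaged -0.06 ± 0.13 at day 4 and 0.31 ± 0.19 at day 8. It had 0.93, 0.57 and 0.29 at day 15 (limma adjusted p = 0.0166) and 0.73, 0.95 and 0.26 at day 21 (limma adjusted p = 0.0067), with array 3, of set 2, the lowest on both days. Pcdh1 had 0.41, 0.25 and 0.25 at day 21 (limma adjusted p = 0.0298). Each of these single-gene protocadherins is a cell surface protein with weak adhesive activity.

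In the clustered protocadherins, known for giving each neuron its own combination of surface proteins, the 8 calls pointed both ways, and none of the called genes lay next to another. The lowest was Pcdhga10, with -0.61, -0.92 and -0.28 at day 15 (limma adjusted p = 0.0152) and -0.76, -1.02 and -0.46 at day 21 (limma adjusted p = 0.00289). All 6 arrays were below 0. Its neighbours on chromosome 18 averaged -0.05 (Pcdhgb6) and -0.11 (Pcdhgb7) at day 21. Pcdha10 had 0.32, 0.76 and 0.67 at day 21 (limma adjusted p = 0.0067), beside -0.07 for Pcdha9 and 0.05 for Pcdha11. Pcdhgc4 had -0.13, -0.08 and -0.03 at day 4 and 0.73, 0.43 and 0.25 at day 21 (0.47 ± 0.24, limma adjusted p = 0.00376). Its excess of day 21 over day 4 was 0.55 (95% interval 0.27 to 0.82, limma adjusted p = 0.0251), a call lost without any 1 array of day 4 and without array 1 or 2 of day 21.

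Pcdha5 (-0.41 ± 0.23), Pcdhb7 (-0.40 ± 0.35) and Pcdhgb1 (-0.28 ± 0.06) were lower, and Pcdhb17 (0.24 ± 0.01) was higher at day 21. Pcdhb12 had -0.35, -1.15 and -0.16, and its mean of -0.55 ± 0.52 rests on the second array, without which it was -0.26 and not called. Genes of these clusters are near-identical over long stretches, and those of the alpha and of the gamma cluster share exons. The value of any 1 of them is uncertain where its probe could bind transcripts of another, and the probe sequences were not used here.

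**Figure D4:**
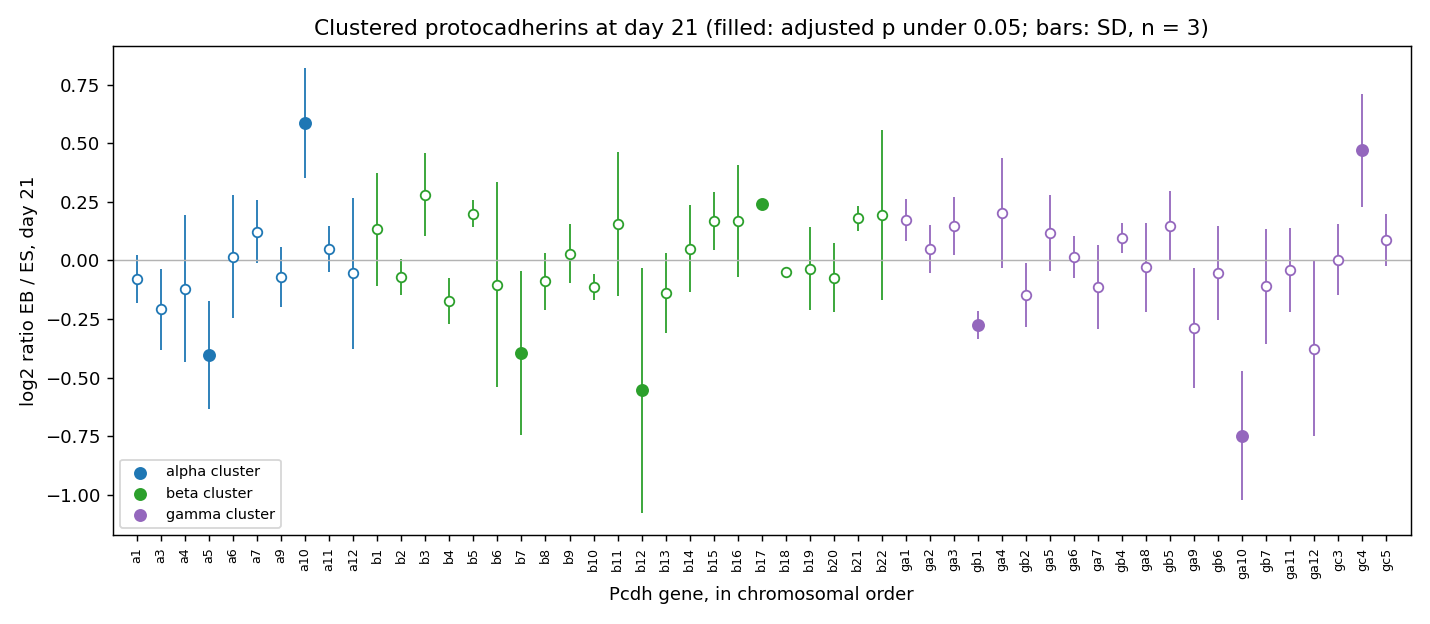
Mean log2 ratio EB / ES at day 21 of the 53 clustered protocadherins that could be placed on chromosome 18, in chromosomal order, with bars for the SD over 3 arrays and filled points for adjusted p under 0.05. Called genes stand singly between neighbours that were not called, from 0.58 for Pcdha10 to -0.75 for Pcdhga10.

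Claudins divided into 3 genes that were called higher and 18 that were not called. Cldn6, a claudin of early embryonic epithelia, had 0.02, -0.82 and 0.81 at day 4, 0.04, 1.06 and 1.13 at day 8, 1.36, 1.20 and 0.62 at day 15, and 0.97, 0.69 and 1.06 at day 21. Days 4 and 8 divided by array set, with the arrays of set 2 the higher ones, whereas all arrays of days 15 and 21 were above 0.6. The means were 1.06 ± 0.39 at day 15 (limma adjusted p = 0.0236) and 0.91 ± 0.19 at day 21 (limma adjusted p = 0.0314). Cldn7, found in many epithelia, ran alongside: -0.03, -0.67 and 0.18 at day 4, -0.16, 0.55 and 0.90 at day 8, 0.96, 0.84 and 0.76 at day 15 (limma adjusted p = 0.00963), and 0.70, 0.64 and 0.81 at day 21 (limma adjusted p = 0.0142). At day 8 both claudins were lowest on array 1, of set 1. The visceral endoderm markers had array medians of 0.12, 0.53 and 0.92 at day 8. These medians were 0.81, 0.85 and 0.16 at day 15. At day 21, when both claudins were highest on array 3, they were 0.80, 0.58 and 0.47. The part of these markers in the claudin values was not tested.

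Cldn5, the claudin of endothelium, had 0.32, 0.30 and -0.00 at day 15 and 0.63, 0.77 and 0.16 at day 21 (0.52 ± 0.32, limma adjusted p = 0.00714). Array 3 was the lowest on both days. Endothelial markers, of which 6 of 12 were higher and 0 lower, had day 21 array medians of 0.34, 0.40 and 0.20. Icam2 stood at 1.04 ± 0.53, Sox18 at 0.61 ± 0.37, Emcn at 0.47 ± 0.35 and Kdr at 0.41 ± 0.14, and Pecam1 at 0.08 ± 0.16 was not called. The part of these cells in the Cldn5 value was not tested. The epithelial claudins Cldn3 (0.16 ± 0.16) and Cldn4 (0.20 ± 0.16) were not called, and the lowest claudin, Cldn23, was at -0.16 ± 0.17. Cldn9, which lies beside Cldn6 on chromosome 17, was at -0.01.

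Tight junction partners gave 3 higher and 0 lower calls among 12 genes with a median of -0.01 at day 21: the scaffold Patj (1.10 ± 0.41), occludin (Ocln, 0.75 ± 0.26) and the receptor Cxadr (0.38 ± 0.02). The scaffold Tjp1 was at 0.04 ± 0.03 and not called. Epithelial genes were higher for 6 and lower for 1 of 13 (median 0.26). The keratins Krt8 (1.67 ± 0.12), Krt18 (1.65 ± 0.32) and Krt19 (1.16 ± 0.06) were in front, with the surface protein Cd24a at 0.84 ± 0.23. The lower gene was Rab25, at -0.28 ± 0.14 (limma adjusted p = 0.0413). Epcam, at -0.21 ± 0.07, was not called (limma adjusted p = 0.402). The array medians of the epithelial genes at day 21 were 0.34, 0.33 and 0.38. Their part in the claudin values was not tested.

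Connexins held both the highest gene of all 139 and the second lowest. Gjb2, a connexin of liver, skin and inner ear, had -1.12, -0.06 and 0.15 at day 4, -0.14, 0.40 and 0.66 at day 8, 1.12, 0.73 and 0.30 at day 15, and 1.17, 1.58 and 0.32 at day 21. Its arrays spread widely, and array 3 was the lowest at days 15 and 21. Day 15 was not called (0.72 ± 0.41, limma adjusted p = 0.103), and day 21 was (1.02 ± 0.65, limma adjusted p = 0.0182). Day 21 exceeded day 4 by 1.36 (95% interval 0.55 to 2.17), which did not pass (limma adjusted p = 0.0521).

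Gjb5, a connexin of trophoblast and skin, had -0.04, 0.37 and -0.20 at day 4, -0.35, -0.08 and -0.54 at day 8, -0.57, -0.46 and 0.01 at day 15, and -0.89, -0.87 and -0.31 at day 21 (-0.69 ± 0.33, limma adjusted p = 0.0074). Gja4, a connexin of endothelium and oocytes that lies on chromosome 4 as Gjb5 does, had 0.32, 0.41 and 0.11 at day 21 (0.28 ± 0.16, limma adjusted p = 0.0309). The 2 genes had day 21 arrays on opposite sides of 0. The adjacent Gja3 and Gjb2 on chromosome 14 averaged 0.21 (not called) and 1.02. Gja1, the most widespread connexin, had 0.28, 0.68 and 0.21 at day 4, 0.51, 0.58 and 0.12 at day 15 (0.40 ± 0.25, limma adjusted p = 0.0343) and 0.11, -0.01 and 0.02 at day 21 (limma adjusted p = 0.836). It was near 0 at days 8 and 21 and above 0 on all arrays of days 4 and 15. The embryonic heart connexin Gjc1 was at -0.35 ± 0.06 and the atrial and arterial Gja5 at 0.07 ± 0.15 at day 21, neither of them called.

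RefSeq promoters of the build GRCm38.p6, which run 250 bases before to 50 after the gene start, are shown for some called claudins and connexins. Chosen were those with a measured relative of the same family and another value, with at most 2 genes between them. These are Cldn6 (chr17:23679115-23679414, plus strand), Gjb2 (chr14:57104653-57104952, minus strand), and Gja4 (chr4:127313990-127314289, minus strand) and Gjb5 (chr4:127358115-127358414, minus strand), which lie on 1 chromosome and differed in sign. Capitals mark 3 motifs searched on both strands: the GC box GGGCGG, the E-box CACCTG that Snail proteins bind, and the TATA box TATAAA.
Cldn6: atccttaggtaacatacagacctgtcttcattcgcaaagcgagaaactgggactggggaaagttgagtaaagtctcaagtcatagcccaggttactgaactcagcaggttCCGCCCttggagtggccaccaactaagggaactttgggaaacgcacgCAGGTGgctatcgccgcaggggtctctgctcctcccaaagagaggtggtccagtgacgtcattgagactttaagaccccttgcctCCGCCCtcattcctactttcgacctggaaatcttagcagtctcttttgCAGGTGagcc
Gjb2: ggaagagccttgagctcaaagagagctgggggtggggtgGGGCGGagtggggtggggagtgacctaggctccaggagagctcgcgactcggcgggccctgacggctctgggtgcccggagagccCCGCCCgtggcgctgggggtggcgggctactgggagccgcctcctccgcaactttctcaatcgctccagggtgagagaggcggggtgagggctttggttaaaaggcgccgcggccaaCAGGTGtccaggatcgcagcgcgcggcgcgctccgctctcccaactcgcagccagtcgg
Gja4: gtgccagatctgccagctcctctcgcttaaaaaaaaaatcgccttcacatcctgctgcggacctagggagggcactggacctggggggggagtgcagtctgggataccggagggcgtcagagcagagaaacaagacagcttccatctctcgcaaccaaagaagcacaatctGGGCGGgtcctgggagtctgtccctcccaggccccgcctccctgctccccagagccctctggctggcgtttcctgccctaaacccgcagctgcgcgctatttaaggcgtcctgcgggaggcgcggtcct
Gjb5: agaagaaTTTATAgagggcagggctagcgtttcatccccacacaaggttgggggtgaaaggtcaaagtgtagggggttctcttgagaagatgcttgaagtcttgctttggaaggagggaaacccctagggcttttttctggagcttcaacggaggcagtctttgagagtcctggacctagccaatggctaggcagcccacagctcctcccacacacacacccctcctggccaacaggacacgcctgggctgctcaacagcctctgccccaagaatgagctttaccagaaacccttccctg
GGGCGG or its reverse stood in the window of Cldn6 and of Gjb2 2 times each and in that of Gja4 1 time. CACCTG stood 2 times in Cldn6 and 1 time in Gjb2, and TATAAA 1 time in Gjb5, at its far end from the gene start. Of 32851 RefSeq promoters, 35.7% held GGGCGG, 20.2% CACCTG and 13.6% TATAAA, so each is common. Of the 139 genes, 58 had a promoter in the table.

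Between days, few adhesion genes differed beyond the spread of the arrays. Day 8 against day 4, day 15 against day 8 and day 21 against day 15 gave 0 limma calls each among the 139 genes, with background shares of 0.0%, 0.178% and 0.00936%, and 5, 9 and 4 genes had an unadjusted p under 0.05, as did 6.98%, 9.22% and 6.31% of all features. Day 21 against day 4 gave 3 (2.16%; background 5.84%), namely Itgb5, Pcdh18 and Pcdhgc4, all higher at day 21 (background for higher 2.62%). Day 21 arrays lay entirely above those of day 4 for 20 genes (background 12.6%) and entirely below for 12 (background 12.2%). The test of any difference between days called 2 (1.44%; background 2.9%): Itgb5 (limma adjusted p = 0.00755) and Pcdh18 (limma adjusted p = 0.0389).

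Many of these calls depended on the arrays and the normalization used. At days 4, 15 and 21 set 2 is array 3 alone, so the set and that array cannot be told apart. Of the 9 genes called at day 15, array 3 was the smallest in size in 9, as in 69.4% of all called features. At day 21 it was the smallest in 14 of 24 (58.3%), against 57.1% of all called features. Set 1 alone, an alternative added after the data were seen, gave 18 calls at day 15, and quantile normalization gave 13 at day 21. The 11 day 21 calls that quantile normalization ended were those of Cldn6, Cldn7, Gjb2, Gja4, Itga5, Itgbl1, Pcdh1, Pcdhb7, Pcdhb12, Pcdhb17 and Pcdhgb1. On set 1 alone the day 21 calls of Itga5, Itga6, Itgbl1, Pcdh1, Pcdhb7, Pcdhb17 and Pcdhgb1 and both day 8 calls were lost. That set holds 1 array of day 8, so its day 8 values have no replicate of their own. Itgb5 held its day 15 and day 21 calls, and Pcdh18 and Pcdhga10 their day 21 calls, when any 1 of the 12 arrays was left out. Each of the other calls against ES was lost without 1 or more arrays of its own day. Without array 1, array 2 or array 3 of day 21, 6, 5 and 19 genes were called at day 21. Without array 1, array 2 or array 3 of day 15, 1, 1 and 15 were called at day 15. Without array 3 of day 8, 0 were called at day 8, where Itga8 had a limma adjusted p of 0.0722.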

How the data were processed

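Gene expression was measured on 12 arrays with 2 channels each, 3 for each of 4 days of embryoid body culture, with RNA of undifferentiated ES cells in the other channel. The titles gave each array's day and number. Per the labels' protocols, TriZol-extracted total RNA was copied into cDNA and then into labelled RNA by in vitro transcription with dye UTP. The deposited values are normalized log ratios per the labels, read here as log2. The labels do not name the base, and 2 is the usual choice. The largest value is 4.47 in size. The normalization method, scanner, background correction and array design were not given in the sources used here. Signal intensities were not used, so the number of arrays limits the precision. Whether the 3 arrays of a day stand for separate cultures is not stated, and p-values reflect no more than the spread between arrays, possibly technical.

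Probe names come from the platform annotation in GEO, parts of which may be out of date: 10043 had 1 gene symbol, 29 several and 1448 none. Probes of 1 gene were averaged, which concerns 6 of the 139 adhesion genes, and 10689 features were tested. All 139 genes matched RefSeq's gene table of GRCm38.p6 by Entrez ID. The test was limma 3.58.1 (lmFit and eBayes) under R 4.3.3, fitted once to all 12 arrays with 4 day means, so that the days share a spread (8 residual and 4.35 prior degrees of freedom). A day's mean was tested against 0, which treats the ES channel as 1 control sample and leaves out the variation of that control. Days were compared by contrasts and a moderated F-test. All tests were two-sided, and the Benjamini-Hochberg adjustment ran over all features of a comparison. The fit was run on simulated data with known shifts. These data held independent noise for each feature and no array sets, so they cannot show how the sets affect the calls. The 53 clustered protocadherins were ordered by their RefSeq positions, and Pcdhgb8, which was not placed, was left out of that order. Plots were drawn with matplotlib 3.10.9.

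The text names the 26 genes called against ES at 1 day or more and those called between days, the highest and lowest of each family at day 21, and 23 of 24 genes of a written list that were measured. Of the partner lists that it describes by gene, it names up to 4 called genes with the largest values. Snai1, Vtn, Rab25, neighbouring genes, and partner genes given as not called were named for their place or role after their values were seen. The genes and lists were chosen with earlier results of these data known. Alternatives were a replicate block, quantile normalization, array weights, the array set as a term, each probe on its own, each array left out, and, added after the data were seen, set 1 alone.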

Additional observations from a re-analysis of the deposited data

Results flagged for a closer look

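Itgb5, Pcdh18 and Pcdhgc4 had ratios that differed between days by a test of the difference itself. Day 21 exceeded day 4 by 0.97 for Itgb5, 0.87 for Pcdh18 and 0.55 for Pcdhgc4 (limma adjusted p = 0.00362, 0.0111 and 0.0251). In each gene all 3 arrays of day 21 lay above all 3 of day 4, which adds no support, since the test used these arrays. With 1 array left out, the limma adjusted p reached 0.0239 for Itgb5, 0.0513 for Pcdh18 and 0.107 for Pcdhgc4. The Pcdhgc4 call was lost without any 1 of 5 arrays. On set 1 alone, an alternative added after the data were seen that uses part of the same arrays, the differences were 1.10, 0.95 and 0.68.

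The probe annotated to both Itgae and Haspin, a kinase gene that lies within Itgae, was left out of the 139 genes and carried a signal. It had -1.02, -0.92 and -0.59 on the day 21 arrays (-0.84 ± 0.22, SD, n = 3, limma adjusted p = 8.29e-04), and -0.79, -0.76 and -0.38 on those of day 15 (limma adjusted p = 0.00702). All 12 arrays were below 0. The probe annotated to Itgae alone was at -0.49 ± 0.21 at day 21, and which of the 2 genes the shared probe reads was not tested.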

How the results depend on the processing

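Array numbers were not taken as pairs, since over 18 pairs of same-numbered arrays the correlation of deviations ran between -0.14 and 0.39. That 10 of 12 arrays correlated best with their own number is a hint of pairing from the data, not from the labels. A replicate block gave 2, 9, 24 and 3 calls at day 8, day 15, day 21 and day 21 against day 4, of which 2, 8, 23 and 3 were shared with the fit without it, and 1 in place of 2 for any difference between days. The block ended the day 15 call of Pcdh18 (limma adjusted p = 0.0592) and the day 21 call of Pcdhb17 (limma adjusted p = 0.0679). Quantile normalization gave 1 call at day 4, 5 at day 8 and 13 at day 21, and medians of 0.108 for cadherins and 0.0783 for claudins at day 21. Array weights gave 10 calls at day 8, 31 at day 15, 6 for day 15 against day 8, 16 for day 21 against day 4 and 14 between any days. Set 1 alone, added after the data were seen, gave 0 at day 8, where it leaves 1 array, 18 at day 15, 11 for day 21 against day 4 and 7 between any days. The array set as a term gave 6 for day 21 against day 4, and each probe on its own 1 at day 8. The causes of these shifts were not tested. Leaving out 1 array at a time, which also leaves fewer arrays, gave 0 to 2 calls at day 8, 1 to 15 at day 15, 5 to 28 at day 21, 0 to 1 for day 15 against day 8, 1 to 9 for day 21 against day 4 and 1 to 4 between any days.

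With 1 array of the day left out, the medians of 7 families moved by more than the spread between arrays at 1 day or more. Integrin alpha had a median between -0.0382 and 0.0035 at day 8, and between 0.0549 and 0.12 at day 21. Integrin beta had a median between -0.12 and -0.0399 at day 4. Integrin-associated had a median between -0.11 and -0.0370 at day 15. Cadherins had a median between 0.11 and 0.14 at day 21. Protocadherins had a median between -0.0428 and -0.0190 at day 8, and between -0.0218 and 0.0602 at day 21. Claudins had a median between -0.0305 and 0.0038 at day 8, and between -0.0003 and 0.11 at day 15, and between 0.0400 and 0.11 at day 21. Connexins had a median between -0.0585 and 0.0318 at day 4, and between 0.0205 and 0.13 at day 15. Of all 140 alternatives for family medians, 121 stayed within that spread and 19 did not.

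Of 969 alternatives for named genes, 833 kept direction and side of the threshold, 118 fell below it, 11 passed it and 7 changed sign. Those 7 concern uncalled genes at day 21: Cdh5 (-0.0199 with array weights, -0.059 on set 1 alone, and -0.059 to 0.0714 with 1 array left out), Itga3 (-0.0062 to 0.0549 with 1 array left out), Itgav (-0.1305 to 0.2502) and Itgb3 (-0.0998 to 0.0169). Signal over background was not used, so dim spots could not be told from weak changes.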
